A study of Mus musculus with 12 samples.

Results

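miR-223 and the pair of mature miRNAs cut from the miR-142 hairpin, miR-142-3p and miR-142-5p, are widely used as marks of myeloid and blood cell identity. They were selected by their names on the array (mmu-miR-223, mmu-miR-142-3p, and mmu-miR-142-5p), 3 of 696 mouse miRNAs carried by the array, and all 3 were among the 334 miRNAs detected on at least 1 array. The samples were primary bone marrow cells of male C57BL/6 mice, 6 to 8 weeks old, from which erythrocytes had been lysed and B cells (B220/CD45R+) and T cells (CD3+) had been removed. All cultures received M-CSF, the growth factor of the macrophage lineage, and RANKL, the cytokine that drives osteoclast formation, at 30 ng/ml each. RNA was taken at days 1, 3, and 5 from 4 independent cultures per day, and each culture was hybridized to 1 single-color array (12 arrays). No culture without RANKL and no uncultured marrow was analysed here, so every comparison is between days of the same treatment.

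After quantile normalization, miR-223 signal was lower at days 3 and 5 than at day 1. The size of that fall is not known, because the day 1 spots exceeded the range of the scanner. Other scalings gave a lower limit by 1 of its 2 probes, and under some of them the fall did not pass the threshold. miR-142-3p was 0.57 ± 0.21 (SE) higher on the log2 scale at day 5 than at day 1, which did not pass the threshold, and by 0.31 to 0.65 under 4 other scalings, none of which passed. miR-142-5p, the product of the opposite arm of the same hairpin, differed by 0.10 ± 0.15 (SE) between these days.

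A miRNA precursor folds into a hairpin, and the enzymes Drosha and Dicer release a short duplex from it. Either strand of that duplex can be loaded into an Argonaute protein, where bases 2 to 8, the seed, select target mRNAs. miR-223 is transcribed in granulocytes and monocytes under the myeloid factors encoded by Spi1 and Cebpa, restrains granulocyte production and activation, and has been studied as a regulator of osteoclast precursors. miR-142 is made in nearly all blood cells, and both of its arms are loaded and active.

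The mature sequences below are from RefSeq (GRCm38.p6) and are shown 5′ to 3′ with the seed in capitals, because the seed defines which family a miRNA belongs to.
miR-223: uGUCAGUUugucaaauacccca
miR-142-3p: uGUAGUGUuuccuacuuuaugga
miR-142-5p: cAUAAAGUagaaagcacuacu
RefSeq lists them as miR-223-3p, miR-142a-3p, and miR-142a-5p. The 3 seeds differ from each other, and among the 1738 mature mouse miRNAs in the table each seed occurs 1 time, so none of the members has a seed relative in that table whose signal could be set beside it.

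The hairpin of Mir142 is shown because it carries both of the miR-142 members, here with the mature arms in capitals.
Mir142: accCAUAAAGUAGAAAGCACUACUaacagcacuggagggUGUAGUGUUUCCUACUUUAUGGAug
The 5p arm occupies positions 4 to 24 and the 3p arm positions 40 to 62 of its 64 bases. Both arms come from 1 primary transcript, so the 5p and 3p products are made in equal number before 1 of the strands is discarded. In the Mir223 hairpin of 110 bases, the measured miR-223 occupies positions 68 to 89. Mir223 lies on the plus strand of chromosome X inside the bounds of the long non-coding RNA gene F630028O10Rik, and the next protein-coding gene is Vsig4. Mir142 lies on the plus strand of chromosome 11, overlaps Mir142b on the opposite strand, and is followed by the protein-coding gene Tspoap1. miR-142b was not analysed here.

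Each member was measured by 2 probes of 10 spots each, and the probes of a member differ only in how far they reach toward the 5′ end of the miRNA. The probes of miR-223 are printed because the results below turn on the contrast between them, and capitals mark the bases that pair with the seed.
Shorter probe of miR-223: tggggtatttgacaAACTGA
Longer probe of miR-223: tggggtatttgacaAACTGAC
The shorter probe pairs with positions 3 to 22 of miR-223 and is listed by the array's annotation at chrX:93438226-93438244 (mm9). The longer probe pairs with positions 2 to 22 and is listed at chrX:93438225-93438244. The probes of miR-142-3p reach to positions 1 and 2 of the miRNA and are listed at chr11:87570406-87570427 and chr11:87570407-87570427. The probes of miR-142-5p reach to positions 3 and 4 and are listed at chr11:87570372-87570389 and chr11:87570373-87570389. Each listed interval is 1 base shorter than its probe. Probes of different miRNAs differ in how brightly they report the same amount of RNA, so levels are compared between days for each member and not between members.

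Total signal, the linear intensity that the scanner software adds up over a miRNA's probes, had not been scaled between arrays. All 3 members were marked as detected on all 12 arrays. The day 1 and day 5 arrays lay on 1 slide and the day 3 arrays on another, so that slide and day cannot be told apart for day 3. The signal summed over all mouse miRNAs was 1464570 to 1991640 at day 1, 976976 to 1137240 at day 3, and 1309730 to 1574710 at day 5. Between 186 and 276 miRNAs were detected per array, with the fewest on day 5 replicate 4.

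**Figure D1:**
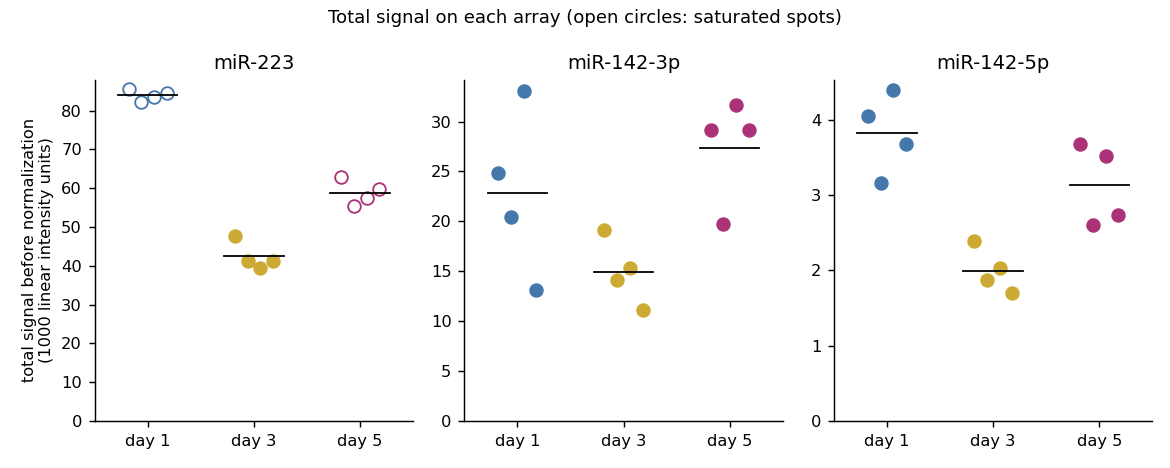
Total signal of each member on each array before normalization (y axis, in units of 1000 of linear intensity) by day (x axis), 4 cultures per day, with a line at the mean. Open circles mark arrays with saturated spots for that miRNA, which were all day 1 and day 5 arrays for miR-223 and no array for miR-142-3p or miR-142-5p.

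The total signal of miR-223 was 85627, 82084, 83558, and 84543 on the 4 arrays of day 1. It was 47670, 41238, 39484, and 41333 at day 3. At day 5 it was 62758, 55476, 57365, and 59856. The 3 days did not overlap before normalization, with day 1 the highest and day 3 the lowest. The day 1 values lay close together because all 20 spots were saturated on all 4 arrays of day 1, so that each value is the ceiling of the scanner and not the amount of miR-223. Of the 334 miRNAs, 11 had a saturated spot on some array and 3 had every spot saturated on every day 1 array.

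The probes of miR-223 separated what was measured from what was capped. At day 1 the mean processed signal of both probes lay between 65181 and 65394, against a scanner limit of 65535, and 98.6 to 99.8% of the pixels were saturated. At day 3 no spot was saturated. The shorter probe then read 22124 to 27706 and had no saturated pixel, whereas the longer probe read 40126 to 48833 with 2.88 to 15.5% of its pixels saturated. On the day 3 arrays 8 or 9 of the 10 spots of the longer probe were also marked as non-uniform by the software. At day 5 the shorter probe read 33138 to 39883 and again had no saturated spot or pixel. The longer probe had 1 to 5 saturated spots on each day 5 array and 33.6 to 60.3% saturated pixels. The signal of the longer probe over that of the shorter one averaged 1.00 on the day 1 arrays. It averaged 1.81 ± 0.03 (SD, n = 4) on the day 3 arrays and 1.64 ± 0.07 (SD, n = 4) on those of day 5. The shorter, dimmer probe was therefore the unsaturated reading of miR-223 at days 3 and 5.

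**Figure D2:**
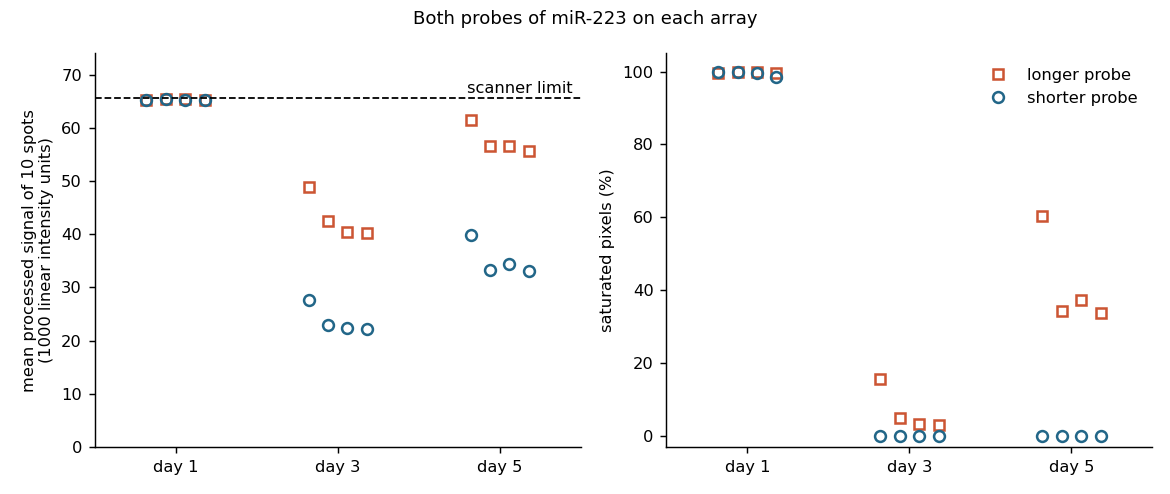
Mean processed signal of the 10 spots of each miR-223 probe (left, in units of 1000 of linear intensity, with the scanner limit as a dashed line) and the share of saturated pixels (right, percent) on each of the 12 arrays. At day 1 both probes sit at the limit with 98.6% or more of their pixels saturated, and at days 3 and 5 only the longer probe has saturated pixels.

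After quantile normalization, which gives all arrays the same distribution of values, miR-223 stood at 16.34, 16.30, 16.34, and 16.30 on the log2 scale at day 1. It stood at 15.90, 15.87, 15.87, and 15.87 at day 3. At day 5 the values were 15.87, 15.90, 15.87, and 15.90. Both later days lay below every day 1 array and overlapped each other. The small spread follows from the scaling, which sets a value by its position in the order of the array. By total signal miR-223 held position 5 or 6 on the arrays of days 3 and 5. On the day 1 arrays it was among the 3 miRNAs with every spot saturated, so its exact position there, and the normalized day 1 values that follow from it, were set by the ceiling.

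miR-223 changed over the time course (limma moderated F test, adjusted p = 2.33e-05), as did 62.9% of the miRNAs tested. It was the 1 member of the 3 called between days 1 and 3, where 52.4% of all miRNAs were called, and between days 1 and 5, where 60.8% were called. No member was called between days 3 and 5, where limma called 25.4% of all miRNAs. It was lower at day 3 than at day 1 by a log2 change of -0.44 ± 0.05 (SE, limma adjusted p = 2.95e-05). Of all miRNAs tested, 25.1% were lower at day 3 at this threshold, an adjusted p under 0.01, and 29.6% were lower without overlap between the arrays. At day 5 miR-223 was lower than at day 1 by a log2 change of -0.43 ± 0.05 (SE, limma adjusted p = 2.28e-05), where 29% of all miRNAs were called lower and 29.9% were lower without overlap. Exact permutation of the quantile normalized values (two-sided) gave p = 0.0286 for both comparisons, the smallest value that this design allows. The day 1 values were set by the ceiling, and the later ones follow from positions in the order. The standard errors and limma p-values of miR-223 after quantile normalization therefore do not measure the spread between cultures. The calls depended on the scaling. Against the 75th percentile of miRNAs detected on all arrays, days 1 and 3 overlapped (log2 change -0.26, exact permutation p = 0.114, limma adjusted p = 0.111), whereas day 5 stayed below day 1 (-0.52, limma adjusted p = 0.00418). Against the 75th percentile of all miRNAs the changes were -0.19 at day 3 and -0.21 at day 5 (limma adjusted p = 0.325 and 0.265), and against the median they were -0.23 and -0.18 (limma adjusted p = 0.159 and 0.256), and none of these passed. With the arrays of the day 1 and day 5 slide fitted alone, the change at day 5 was -0.27 and passed (limma adjusted p = 0.00765). Since the longer probe had saturated pixels on the later days as well, the total signal gives neither an estimate nor a lower limit of the fall.

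The dimmer probe, with no saturated pixel at days 3 and 5, gave a lower limit without normalization and under scalings that divide each array by 1 factor. Its quantile normalized log2 signal was 15.99, 15.93, 15.99, and 15.93 at day 1, against 15.38, 15.21, 15.06, and 15.11 at day 3. At day 5 it was 15.21, 15.21, 15.21, and 15.27. Every later array lay below every day 1 array, and the later days overlapped. On this scale the probe was 1.71-fold higher at day 1 than at day 3 (log2 change -0.77 ± 0.08 (SE), limma adjusted p = 1.37e-05 over 850 probes). It was 1.66-fold higher at day 1 than at day 5 (log2 change -0.73 ± 0.08 (SE), limma adjusted p = 1.14e-05). These quantile normalized folds are not lower limits. With day 1 at the ceiling, their standard errors and p-values do not measure the spread between cultures. The lower limit depended on the scaling. Without normalization and scaled by 1 factor per array, it ran from 1.32 to 2.76 for day 3. For day 5 it ran from 1.21 to 1.86, with day 1 the brighter day throughout. Scaled to the 75th percentile of all probes, the dimmer probe passed the threshold at neither day (adjusted p = 0.0295 at day 3 and 0.113 at day 5 in limma), and scaled to the median it passed at day 3 but not at day 5 (adjusted p = 0.00418 and 0.0219). The longer probe, capped at day 1 and partly saturated later, changed by -0.17 ± 0.07 (SE) at day 3 and by -0.15 ± 0.07 (SE) at day 5 and was not called (limma adjusted p = 0.066 and 0.0989). Its sign depended on the scaling, and against the 75th percentile of all probes it was called higher at day 3 than at day 1 (0.55, limma adjusted p = 0.00954).

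Between days 3 and 5 miR-223 differed by 0.01 ± 0.05 (SE) on the log2 scale, with a 95% interval from -0.10 to 0.12 (limma adjusted p = 0.962). This is the total signal, whose longer probe had 33.6 to 60.3% saturated pixels at day 5 against 2.88 to 15.5% at day 3. Its normalized values follow from positions in the order, so the interval does not measure the spread between cultures. The dimmer probe differed by 0.04 ± 0.08 (SE, adjusted p = 0.793 in limma). Relative to the median of all probes it stood at 0.04 after quantile normalization and at 0.18 to 0.29 in the other settings, without a test. Without normalization the total signal was higher at day 5 on every array (log2 change 0.47, limma adjusted p = 0.00396), on a scale where the median miRNA also rose by 0.36 from day 3 to day 5. Against the 75th percentile of miRNAs detected on all arrays the total signal was instead lower at day 5 on every array (-0.26, exact two-sided permutation p = 0.0286, limma adjusted p = 0.165). On that scale the median miRNA also changed by -0.26, so that miR-223 moved with the median. The direction between these days thus turned with the scaling. Whether the slide contributed cannot be told apart from the day here.

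The total signal of miR-142-3p was 24817, 20478, 33100, and 13133 on the day 1 arrays. It was 19137, 14163, 15293, and 11149 at day 3. At day 5 it was 29143, 19723, 31625, and 29114. No spot was saturated on any array, and the 10 spots of a probe varied by 2.6 to 8.22% (coefficient of variation), less than the cultures of any 1 day did. Day 1 replicate 4 was the lowest culture of its day and day 5 replicate 2 the lowest of day 5, and days 1 and 5 overlapped.

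On the normalized log2 scale miR-142-3p stood at 14.18, 14.18, 14.39, and 13.85 at day 1. At day 3 it stood at 14.55, 14.39, 14.39, and 13.85, and at day 5 at 14.74, 14.22, 15.00, and 14.92. At day 5, 3 of the 4 arrays lay above every array of the earlier days, and replicate 2 lay within the range of day 1. The change from day 1 to day 5 was 0.57 ± 0.21 (SE), a 1.49-fold difference with a 95% interval from 0.11 to 1.03 on the log2 scale, and it did not pass the threshold (limma adjusted p = 0.0287, exact two-sided permutation p = 0.0571). Without day 5 replicate 2 it was 0.75 ± 0.18 (SE) and passed (limma adjusted p = 0.00438). The change was smaller, and also not called, in 3 other settings. It was 0.31 against the 75th percentile of miRNAs detected on all arrays (limma adjusted p = 0.206), 0.32 without normalization (limma adjusted p = 0.371), and 0.32 with saturated spots left out of all miRNAs (limma adjusted p = 0.175). The difference between days 3 and 1 was 0.15 ± 0.21 (SE, limma adjusted p = 0.555), and that between days 5 and 3 was 0.42 ± 0.21 (SE, limma adjusted p = 0.149). The probes changed by 0.51 and 0.56 from day 1 to day 5 on the log2 scale (limma adjusted p = 0.0375 and 0.0183). Without normalization these changes were 0.31 and 0.33 (limma adjusted p = 0.411 and 0.392), and against the 75th percentile of detected probes 0.48 and 0.50 (limma adjusted p = 0.0555 for both), none of which passed. Scaled to the 75th percentile of all probes, they were 0.94 and 0.96 and both passed (limma adjusted p = 0.00491 and 0.00536), and scaled to the median they were 0.76 and 0.78 and also passed (limma adjusted p = 0.00405 and 0.00442). The longer probe was 1.54 to 1.57 times as bright as the shorter one in the mean of each day.

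The total signal of miR-142-5p was 4057, 3164, 4398, and 3685 at day 1. It was 2388, 1870, 2033, and 1695 at day 3, and 3680, 2600, 3526, and 2734 at day 5. Before normalization all day 3 arrays lay below all arrays of days 1 and 5, and days 1 and 5 overlapped. On the normalized scale the order of the days was gone. The values were 11.38, 11.15, 11.83, and 11.78 at day 1. They were 11.59, 11.57, 11.59, and 11.38 at day 3, and 11.64, 11.52, 11.71, and 11.67 at day 5. All 3 days overlapped.

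None of the 3 comparisons between days passed the threshold for miR-142-5p. The change from day 1 to day 5 was 0.10 ± 0.15 (SE) with a 95% interval from -0.22 to 0.43 on the log2 scale (limma adjusted p = 0.567), and that from day 3 to day 5 was also 0.10 ± 0.15 (SE, limma adjusted p = 0.684). The change from day 1 to day 3 was -0.00 ± 0.15 (SE), with an interval from -0.32 to 0.32. A change of 0.5 in either direction lies outside all 3 intervals after quantile normalization, but not under other scalings. Against the 75th percentile of miRNAs detected on all arrays the interval from day 1 to day 5 ran from -0.60 to -0.01, and against that of all miRNAs it ran from -0.60 to 0.31 for day 1 to day 3 and from -0.31 to 0.61 for day 3 to day 5. Without normalization miR-142-5p was lower at day 3 than at day 1 by a log2 change of -0.94 (limma adjusted p = 0.000747), on a scale where the median of all miRNAs fell by 0.77. Its probes were almost equally bright, with a ratio of 1.01 to 1.04 in the mean of each day.

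**Figure D3:**
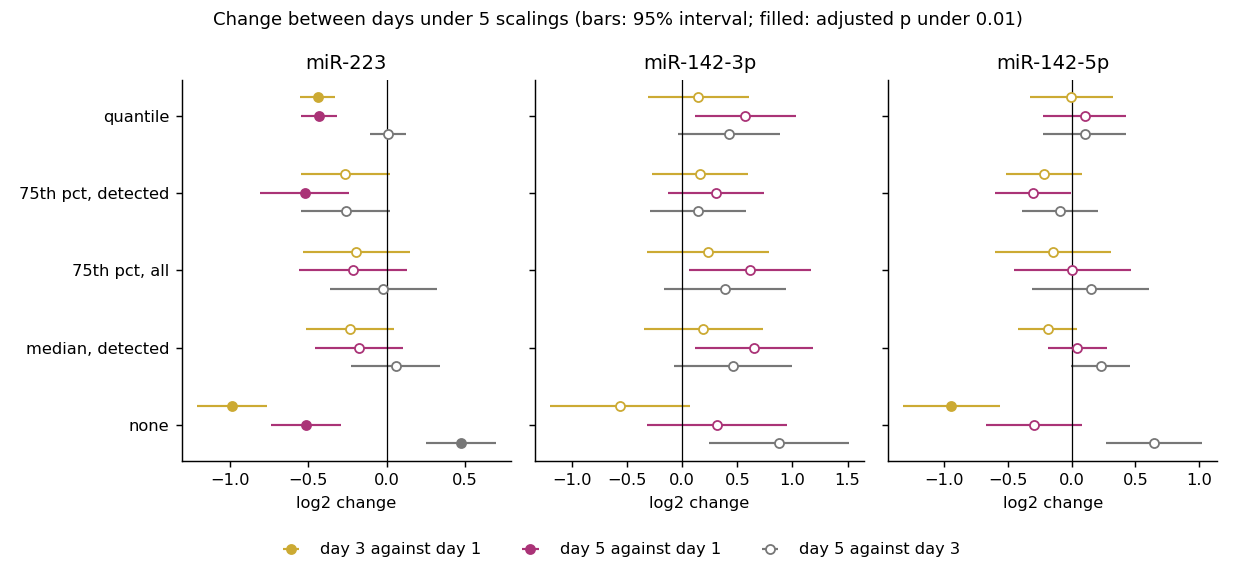
Log2 change between days for each member (x axis) under 5 scalings (y axis), as points with 95% intervals from limma, filled where the adjusted p was under 0.01. miR-223 lies left of 0 against day 1 in every scaling but is called in only some of them, miR-142-3p is called in none of them, and miR-142-5p is called only at day 3 without normalization.

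The scalings themselves shift all miRNAs. The median change of the 334 miRNAs from day 1 to day 5 was 0.11 after quantile normalization, -0.51 after scaling to the 75th percentile of miRNAs detected on all arrays, and -0.50 without normalization. Relative to that median, the total signal of miR-223 stood at -0.54 after quantile normalization and at -0.02 under both of the others. Its dimmer probe stood at -0.90 relative to the median of all probes after quantile normalization, at -0.42 after percentile scaling, and at -0.42 without normalization. miR-142-3p stood above the median in all 3 settings, by 0.46, 0.81, and 0.81. For miR-142-5p the same values were -0.01, 0.20, and 0.20. These positions are descriptions and carry no test.

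Differences between members on 1 array do not depend on a scaling factor between arrays. The log2 signal of miR-142-3p exceeded that of miR-142-5p by 2.61, 2.69, 2.91, and 1.83 at day 1. At day 3 the excess was 3.00, 2.92, 2.91, and 2.72, and at day 5 it was 2.99, 2.92, 3.17, and 3.41. Every day 5 array lay above every day 1 array, by the narrowest margin between day 5 replicate 2 and day 1 replicate 3. The mean excess was larger at day 5 than at day 1 by 0.61 ± 0.26 (SE) (exact two-sided permutation p = 0.0286, adjusted p = 0.193 over 9 comparisons). As the p of 0.0286 is the smallest that 4 against 4 arrays can give, a difference without overlap cannot pass an adjusted p of 0.05 over 9 comparisons unless most of the others are also without overlap, so the adjusted values say little about any 1 difference. Leaving out single arrays moved the change of 0.61 between 0.38 and 0.74, and the lower value came without day 1 replicate 4. Days 1 and 5 overlapped after quantile normalization (0.47, exact permutation p = 0.114) and in the authors' values (0.42, exact permutation p = 0.114). They also overlapped with the alternative background correction (0.47, exact permutation p = 0.0857). With the processed signal, saturated spots included or not, they did not overlap (0.61, exact permutation p = 0.0286). Between days 1 and 3 the excess differed by 0.38 ± 0.24 (SE, exact permutation p = 0.0857, adjusted p = 0.193), and by 0.15 without day 1 replicate 4. It was also 0.15 after quantile normalization and 0.086 in the authors' values.

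The log2 signal of miR-223 exceeded that of miR-142-3p by 1.79, 2.0, 1.34, and 2.69 at day 1. The excess was 1.32, 1.54, 1.37, and 1.89 at day 3, and 1.11, 1.49, 0.86, and 1.04 at day 5. Days 1 and 5 overlapped through day 1 replicate 3 and day 5 replicate 2, and the change from day 1 to day 5 was -0.83 ± 0.31 (SE). Both days hold saturated spots of miR-223, so this value is neither an estimate nor a limit and is given as a description. With the dimmer probe of miR-223 in place of its total signal, the change was -1.22 ± 0.31 (SE) without overlap (exact permutation p = 0.0286, adjusted p = 0.0643), and since day 1 is capped this is again a lower limit of the fall. Relative to miR-142-5p the change of miR-223 from day 1 to day 5 was -0.22 ± 0.15 (SE) by total signal. That value too is neither an estimate nor a limit, as all spots were saturated at day 1 and only some at day 5. By the dimmer probe the change was at least as low as -0.61 ± 0.14 (SE, exact permutation p = 0.0286, adjusted p = 0.0643).

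**Figure D4:**
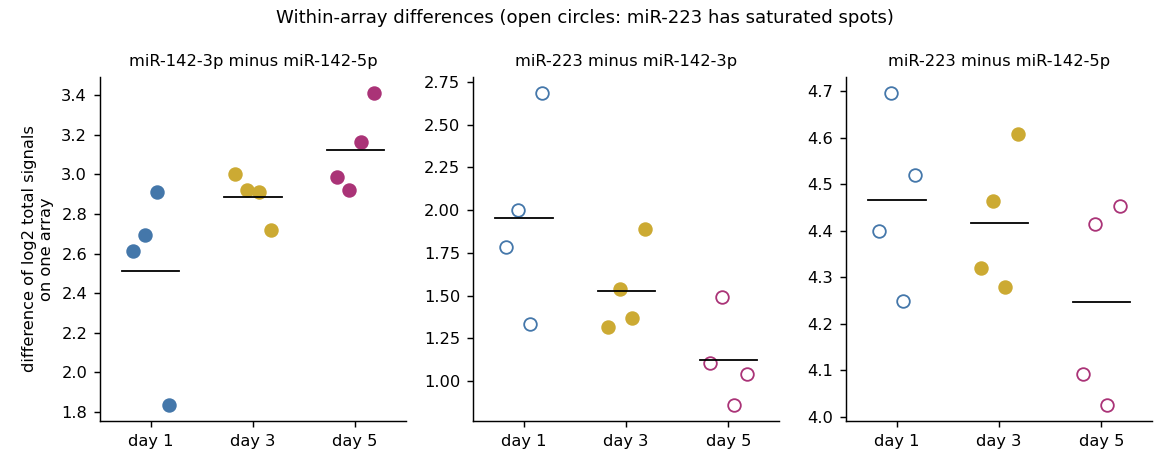
Difference between the log2 total signals of 2 members on the same array (y axis) by day (x axis), with a line at the mean of 4 cultures. Open circles mark arrays on which spots of miR-223 were saturated. The 3p minus 5p difference lies between 1.83 and 2.91 at day 1 and between 2.92 and 3.41 at day 5.

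Of 136 unsaturated miRNAs detected on all 12 arrays, those most like miR-223 over the arrays were miR-25 (Pearson r = 0.98) and miR-93 (r = 0.98), both encoded in the miR-106b-25 cluster. The day means of miR-25 were 12.99, 12.18, and 12.04 in the order of the days, each with an SD of at most 0.07 over 4 arrays. Those of miR-93 were 12.63, 11.96, and 12.02. For miR-142-3p they were miR-301a (r = 0.87) and miR-362-5p (r = 0.78). The day means of miR-301a were 8.50, 8.84, and 9.60, with the widest SD, 0.46, at day 1. For miR-142-5p the closest entries reached only r = 0.65 (miR-1937c) and r = 0.64 (miR-106b). The arms of the miR-142 hairpin correlated with each other at r = 0.38, and miR-223 correlated with miR-142-3p at r = -0.46. These coefficients describe 12 arrays that share the same 3 days and the same scaling, and the capped day 1 values enter those of miR-223.

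A list of 9 other miRNAs associated with myeloid cells gives the surroundings. From day 1 to day 5, 7 of the 9 were called higher and 1 lower, where 31.7% and 29% of all miRNAs were called in these directions. The median change of the list was 0.59, against 0.11 for all miRNAs tested. From day 1 to day 3, 3 were called higher and 1 lower, where 27.2% of all miRNAs were called higher. miR-24 rose from 14.62 ± 0.09 (SD, n = 4) to 15.89 ± 0.02 by day 5 (log2 change 1.27, limma adjusted p = 4.22e-08). miR-146a, a feedback inhibitor of NF-κB signaling, rose by 1.16 (limma adjusted p = 0.000343), and miR-342-3p, which like miR-223 is induced during myeloid differentiation, rose by 1.21 (adjusted p = 7.92e-06). miR-155, which is induced in activated macrophages, was the member called lower, with a log2 change of -1.05 (limma adjusted p = 0.00368), and it was detected on all 4 arrays of day 1, none of day 3, and 3 of day 5. miR-21 changed by 0.21 without passing (adjusted p = 0.0185 in limma), and up to 20 of its spots were saturated, so its values are capped there. miR-23a, one of the 7 called higher (0.56, limma adjusted p = 2.12e-06), had up to 10 saturated spots on an array, and its normalized values were the same on the 4 arrays of each day (SD 0), as they follow from its position in the order. miR-223 was lower at day 5 on the same arrays.

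**Figure D5:**
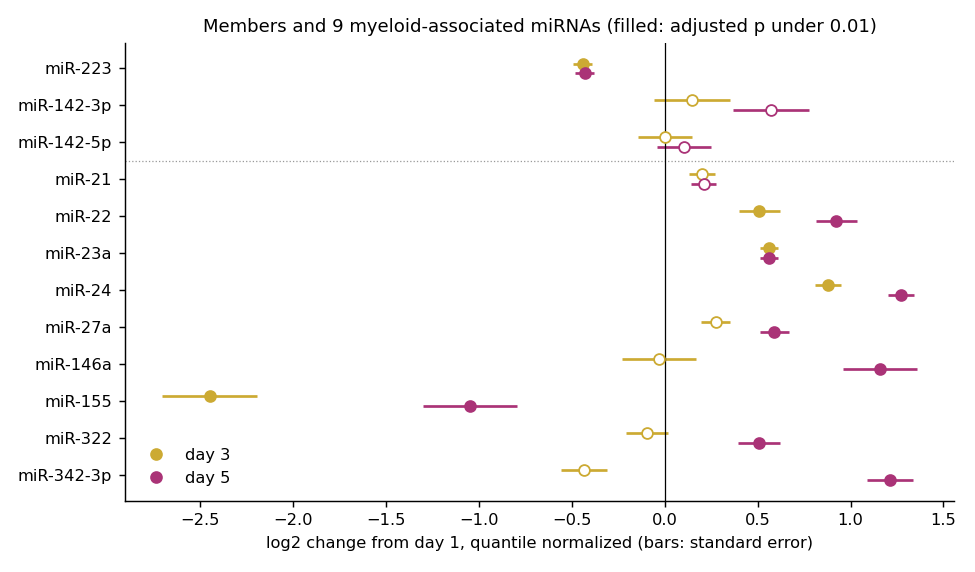
Log2 change from day 1 to days 3 and 5 after quantile normalization (x axis, with standard errors) for the 3 members and 9 myeloid-associated miRNAs (y axis), filled where the adjusted p was under 0.01. miR-223 and miR-155 lie left of 0 at both days, and 7 of the 9 listed miRNAs are called higher at day 5.

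Markers of other cells moved over the same days. The summed normalized signal of the erythroid miRNAs measured (miR-451 and miR-144, 2 of 4 listed) was 25488.4 to 38092.1 at day 1 and 136.4 to 268.2 at day 5. miR-144 was detected on only 2 of the 4 arrays of day 1 and on none of days 3 and 5. The megakaryocytic and endothelial miR-126-3p was detected on all 4 arrays of day 1 and on no later array, so its change is described by detection alone. The lymphoid list (miR-150, miR-181a, miR-181b) summed to 1839.6 to 2758.3 at day 1 and 1626.4 to 2229.8 at day 5, and its miRNAs moved in different directions. miR-150 was detected only on the 4 arrays of day 1, and its change at day 5 was not called. miR-181a was called lower at day 5 (-0.80, limma adjusted p = 0.000641), where 29% of all miRNAs were. miR-181b was called higher at day 3 (0.79, limma adjusted p = 0.000389), where 27.2% of all miRNAs were, but not at day 5 (0.45, limma adjusted p = 0.0101). The stromal list (both arms of miR-199a with miR-214, miR-145, and miR-143) summed to 436.6 to 666.2 at day 1 and 2600.1 to 3630.4 at day 5. At day 5, 4 of its 5 miRNAs were called higher, where 31.7% of all miRNAs were. Among those called, miR-143 was detected on 3 arrays of day 5 and on no earlier array. miR-214 was detected on 1 array of day 1, none of day 3, and 3 of day 5. Their day 1 values were mostly below detection, so the count is a description and not a test. The part of such cells in the changes of miR-223 and miR-142-3p was not tested. These are bulk cultures, in which fewer cells of a type and less RNA per cell cannot be told apart.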

How the data were processed

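RNA from 12 cultures (4 each at days 1, 3, and 5) was read on single-color miRNA arrays. Per the file headers, the scanner files deposited by the authors were made with Agilent Feature Extraction 9.5.3.1 and hold linear intensity values with background subtracted and no scaling between arrays. The authors also deposited log2 values after quantile normalization in GeneSpring, used as an alternative.

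Total signals were filtered to miRNAs with detection on 1 or more arrays (334 miRNAs), quantile normalized (limma 3.58.1 under R 4.3.3), floored at 1, and put on the log2 scale. Day means were fitted by lmFit and eBayes, with p-values adjusted over all 334 (Benjamini-Hochberg) and called under 0.01. Probes were fitted likewise on the mean processed signal over spots not marked as outliers, and where all spots of a probe were marked on an array they were kept (4 cases). Where day 1 was saturated, folds of the dimmer probe are lower limits with the saturated spots at their value, except after quantile normalization. Within-array differences were compared by exact two-sided permutation and adjusted over 9 comparisons (threshold 0.05).

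The miRNAs named are the 3 members, the 2 miRNAs most correlated with each among unsaturated miRNAs detected on all arrays, a list of 9 myeloid-associated miRNAs, and marker lists (erythroid miR-451, miR-144, miR-144*, and miR-486, of which the last 2 had no matching name; lymphoid; megakaryocytic and endothelial; stromal). The members and lists were chosen with earlier results of these data known. The fit was tested on simulated data. Precision is set by the 4 arrays per day. Alternatives covered the filter, scaling, floor, background correction, saturated spots, the authors' values, a replicate block, the slide of days 1 and 5 alone, and each array left out.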

Additional observations from a re-analysis of the deposited data

Results flagged for a closer look

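In 2 of the 17 groups of 4 arrays tested, 1 array lay far from the others of its day, where chance alone gives about 1 in 20 such groups. That rate holds for continuous values. The normalized values of both groups follow from positions in the order and include ties, so it does not apply to them. The quantile normalized log2 signal of miR-142-5p was 11.38 on day 3 replicate 4, against 11.57 to 11.59 on the other day 3 arrays. That of miR-223 was 15.90 on day 3 replicate 1 and 15.87 on the other 3, which differ by 1 position in the order of the array.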

How the results depend on the processing

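The fall of the total signal of miR-223 from day 1 kept its direction under every alternative run but passed the threshold only under some. From day 1 to day 3 the log2 change was -0.26 (75th percentile of miRNAs detected on all arrays), -0.19 (75th percentile of all miRNAs), and -0.23 (median), none of which passed. From day 1 to day 5 it did not pass against the 75th percentile of all miRNAs (-0.21) or the median (-0.18). In these 3 scalings its F test gave adjusted p = 0.0122, 0.418, and 0.264. Among the probe fits, the dimmer probe did not pass against the 75th percentile of all probes (-0.41 at day 3, -0.27 at day 5) or, at day 5, against the median (-0.45). The longer probe turned positive at day 3 against the percentile of detected probes (0.39), of all probes (0.55), and the median (0.32), and at day 5 in the latter pair (0.43 and 0.25), and passed as lower at day 3 without normalization (-0.50). From day 3 to day 5 miR-223 turned negative in the percentile scalings (-0.26 and -0.020; dimmer probe -0.16) and, in a fit of days 3 and 5 chosen after seeing the data, without saturated spots (-0.060), and it passed as higher without normalization (0.47; dimmer probe 0.56). The median of all miRNAs changed from day 3 to day 5 by -0.26 and -0.034 in the percentile scalings and by 0.36 without normalization. Leaving out all saturated spots leaves no day 1 value for miR-223.

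The day 5 change of miR-142-3p probes passed against the 75th percentile of all probes (0.94 and 0.96) and the median (0.76 and 0.78). Without normalization miR-142-3p was lower at day 3 than at day 1 (-0.56, not called). Changes of miR-142-5p near 0 turned sign, to 0.021 at day 3 without saturated spots, to -0.19 (miRNAs detected on all 12 arrays), -0.30 (75th percentile), and -0.29 (no normalization) at day 5 against day 1, and to -0.089 (75th percentile) at day 5 against day 3. Without normalization its day 3 change was -0.94 and its F test gave adjusted p = 0.00157, both past the threshold. Within arrays, miR-223 minus miR-142-5p turned to 0.024 at day 3 with the processed signal and to 0.12 between days 3 and 5 with the authors' values. The cause of these shifts was not tested. The scalings at probe level over all probes or the median, and the dimmer probe within arrays, were chosen after seeing the data.

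With each array left out in turn, miR-142-3p at day 5 against day 1 ranged from 0.46 to 0.75, and passed without day 5 replicate 2. miR-142-5p ranged from -0.13 to 0.11 at day 3 and from -0.035 to 0.22 at day 5, both against day 1, without a call. Within arrays, miR-223 minus miR-142-5p ranged from -0.12 to 0.028 at day 3. miR-223 ranged from -0.49 to -0.40 at day 3 and from -0.48 to -0.39 at day 5 and passed each time.

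The number of miRNAs called fell when only those detected on all 12 arrays were fitted, since fewer were tested (80, 109, and 114 of 148 for days 3 and 5 against day 1 and the F test). It was 115 of 220 at day 3 with the authors' values and 40 of 334 between days 3 and 5 with the 75th percentile of all miRNAs. Whether replicate numbers pair the cultures could not be settled, as the correlations spread widely. They ran from -0.44 to 0.70 between same-numbered cultures (mean 0.14) and from -0.66 to 0.62 between the others (mean -0.05). With the replicate block, 176, 200, and 74 miRNAs were called in the 3 comparisons between days, and the members' calls did not change (miR-223 at day 5, -0.43).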
